A study of Mus musculus with 33 samples.

Results

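Hemoglobin and erythroid genes are described here by 6 genes that red blood cells and their precursors are known for. They are Hba-a1 and Hba-a2, which encode the adult alpha globin chains, Hbb-b1 and Hbb-b2, which encode the adult beta globin chains, Alas2, the erythroid enzyme that starts heme synthesis, and Slc4a1, the band 3 anion exchanger of the red cell membrane. The members were chosen by name, as the rows with these symbols in both deposited tables. All 6 were present among the 14613 genes of the table for the main olfactory epithelium (MOE) and among the 14744 genes with values in the table for mature olfactory sensory neurons (mOSN). All 6 passed the filter on low values in MOE.

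The series holds 33 mouse samples, of which 12 are RNA-seq and 21 (DNA modification, chromatin and input samples) were not analysed here. The mice were 3 weeks old and wild type (WT, Dnmt3a +/+), heterozygous-null (Het, Dnmt3a +/-) or homozygous-null (KO, Dnmt3a -/-) for Dnmt3a, a de novo DNA methyltransferase. Whole MOE was taken after 60 min with paper carrying 80 µL of water or of 3 odorants in equal parts (amyl acetate, acetophenone and octanal, called odor here), with 1 library per genotype and treatment. Sorted mOSN had 2 libraries per genotype, which the deposited table gives as 1 pooled value. MOE RNA was prepared with NuGEN kits throughout, whereas mOSN RNA was prepared with ScriptSeq in both WT libraries, NuGEN in both KO libraries and 1 of each in Het. The labels do not say how many animals a library held, in which cells or in which exons Dnmt3a was removed, or how much blood remained in the tissue, and they mention no perfusion.

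Adult hemoglobin is a tetramer of alpha and beta chains, each holding a heme group. Red cell precursors in the bone marrow make these chains in large amounts under the control of the transcription factors GATA1, KLF1 and TAL1, and young red cells leaving the marrow still carry globin mRNA. In a solid tissue such as the olfactory epithelium, with its underlying vessels and the marrow spaces of nearby bone, globin mRNA is commonly read as a measure of blood. Globin transcripts have also been found at low levels in some neurons.

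The upstream sequences of the 4 globin genes and Alas2 held matches to short motifs, some of them known from erythroid promoters. RefSeq's promoter table, in build GRCm38.p6, matched 5 of the 6 members, all but Slc4a1. It names Hbb-b1 as Hbb-bs and Hbb-b2 as Hbb-bt, matched here by Ensembl identifier. The 250 bases before the annotated gene start are printed for 4 of them, because the globin genes moved together between libraries and Alas2 followed the beta globin genes. The windows are chr11:32283422-32283671 on the plus strand for Hba-a1, chr7:103827929-103828178 on the minus strand for Hbb-b1, chr7:103813924-103814173 on the minus strand for Hbb-b2 and chrX:150547167-150547416 on the plus strand for Alas2. Capitals mark every match, on either strand, to 4 motifs: GATAA (the core that GATA factors bind), CACCC (a box that KLF1 can bind), CCAAT (the box of nuclear factor Y) and, as a TATA-like box, TATAA.
Hba-a1: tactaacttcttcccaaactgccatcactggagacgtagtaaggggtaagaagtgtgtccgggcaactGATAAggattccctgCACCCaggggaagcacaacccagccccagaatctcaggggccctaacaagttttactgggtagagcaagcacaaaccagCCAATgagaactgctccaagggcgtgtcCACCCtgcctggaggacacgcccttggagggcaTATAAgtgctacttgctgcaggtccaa
Hbb-b1: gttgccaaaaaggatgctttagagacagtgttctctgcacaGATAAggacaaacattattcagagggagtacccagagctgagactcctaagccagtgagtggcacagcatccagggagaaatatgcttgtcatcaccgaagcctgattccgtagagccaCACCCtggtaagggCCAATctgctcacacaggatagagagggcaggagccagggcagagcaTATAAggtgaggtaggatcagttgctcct
Hbb-b2: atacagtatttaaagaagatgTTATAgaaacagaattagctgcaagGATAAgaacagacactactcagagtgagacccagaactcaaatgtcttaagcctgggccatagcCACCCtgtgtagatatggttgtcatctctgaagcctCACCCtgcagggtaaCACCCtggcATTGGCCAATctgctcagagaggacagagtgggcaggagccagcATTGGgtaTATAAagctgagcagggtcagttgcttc
Alas2: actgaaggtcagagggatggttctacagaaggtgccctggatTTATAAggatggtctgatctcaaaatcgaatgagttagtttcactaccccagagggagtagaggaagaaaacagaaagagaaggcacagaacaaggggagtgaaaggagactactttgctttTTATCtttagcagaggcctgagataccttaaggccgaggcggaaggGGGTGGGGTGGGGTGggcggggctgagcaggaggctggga
The window of Hba-a2, at chr11:32296242-32296491 on the plus strand, was identical to that of Hba-a1 over 247 bases once shifted by 3 bases, since the annotated starts differ by that much. The Hbb-b1 and Hbb-b2 windows were 77.4% identical over 239 aligned bases. Each of the 4 globin windows held all 4 motifs, which 0.968% of the 32851 windows in the table did. The Alas2 window held the GATA motif, the CACCC box and the TATA-like box, but no CCAAT box. Matches to single motifs were common, in 22.6% of all windows for the GATA motif, 52.0% for the CACCC box, 33.8% for the CCAAT box and 22.8% for the TATA-like box. In the globin windows a TATA-like box lay close to the start, with its first base 27 bases before it in Hba-a1, 29 in Hbb-b1 and 28 in Hbb-b2. In Alas2 it lay 207 bases before the start. Neighbouring matches ran together in 2 windows, as 2 CCAAT boxes on opposite strands in Hbb-b2 and as 3 CACCC boxes, and the TATA-like box read on both strands, in Alas2.

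The libraries differed in ways that bear on all results below. Recovered whole reads numbered 9410063 (KO water) to 17639584 (Het odor) per MOE library, and the median gene had 222 to 396. The Het odor library stood apart. The summed level of 16 mature neuron markers was 7779 there and 12340 to 32903 in the other 5 libraries, and Omp, the marker protein of mature olfactory neurons, was at 249 against 1582 to 5962. Of all 14602 genes tested, 30.6% had their highest value in Het odor. Dnmt3a itself was at 84.4, 50.3 and 56.1 in the WT, Het and KO libraries of MOE with water, at 89.0, 66.6 and 48.3 with odor, and at 175, 120 and 56.2 in mOSN. Both mutants were below WT throughout, but Het was not above KO with water. No MOE library has a replicate, so no spread within a genotype and treatment could be measured.

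Globin genes were among the most abundant in the MOE table. Hbb-b2 ranked 4 to 13 among all genes by RPKM-scale value, Hbb-b1 6 to 15, and both alpha globin genes 9 to 23. Alas2 ranked 430 to 937 and Slc4a1 1775 to 4908. The 4 globin genes together took 0.908% of all reads (Wilson 95% interval 0.903 to 0.9136%, counting error only), 0.76% and 1.16% in the WT, Het and KO libraries with water, and 0.66%, 1.26% and 0.641% in those with odor. Het odor and KO water thus held the largest globin shares, and KO odor the smallest.

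**Figure D1:**
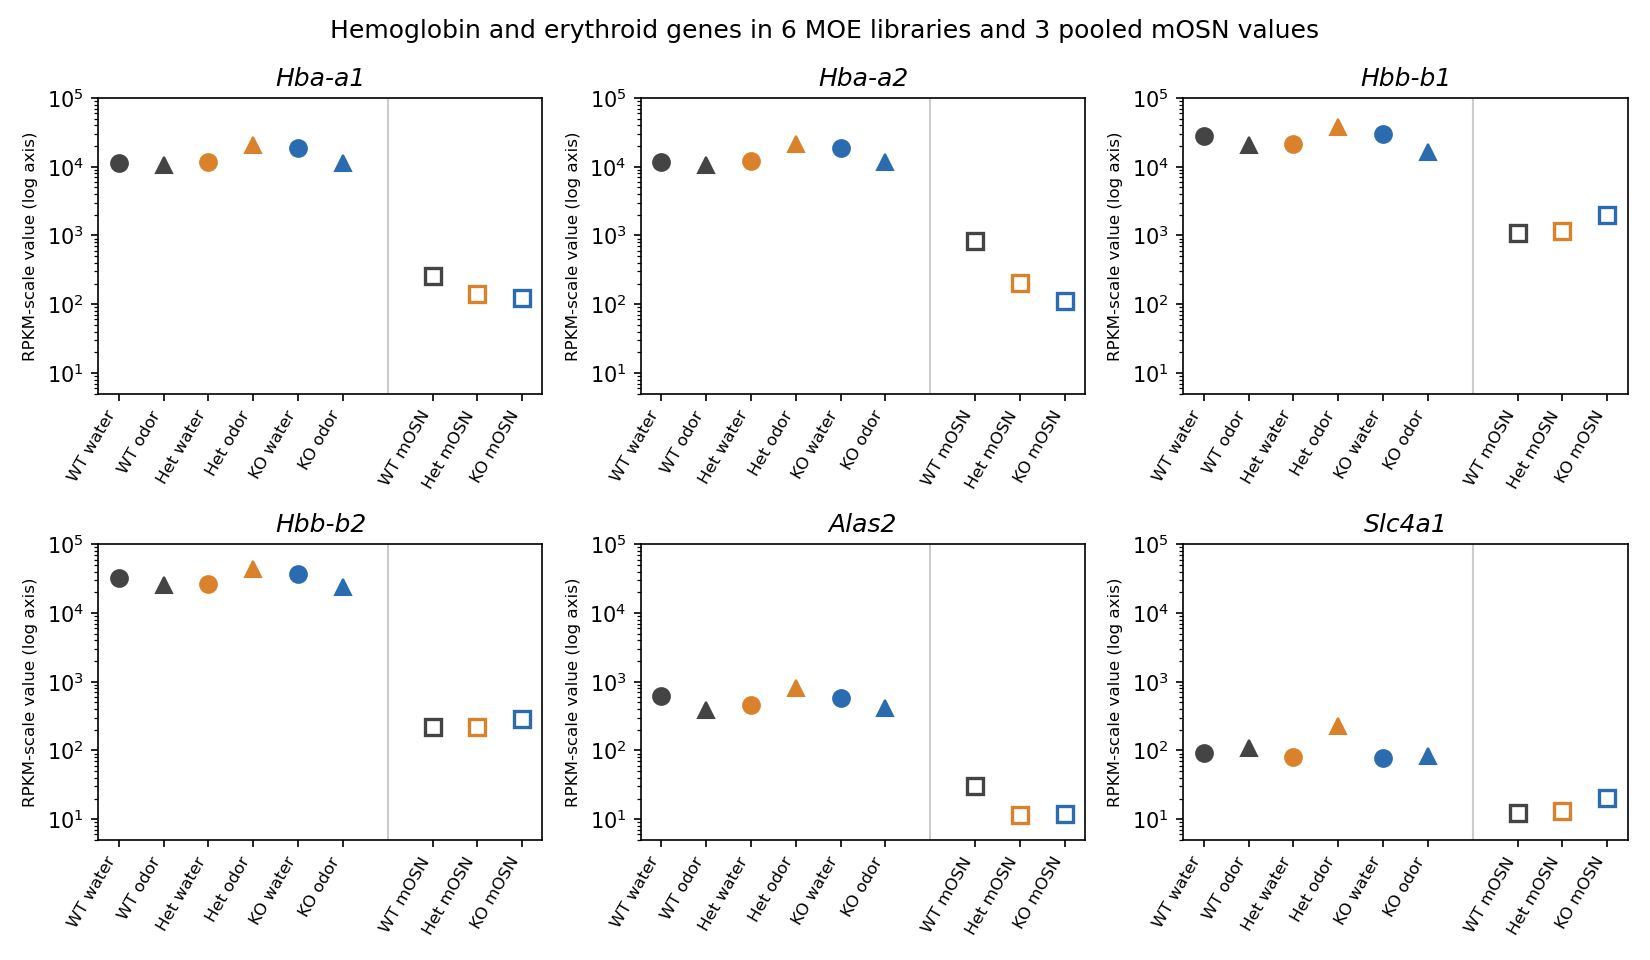
RPKM-scale values (log axis, shared range) of the 6 genes in the 6 MOE libraries (circles with water, triangles with odor) and in the 3 pooled mOSN columns (open squares), with grey for WT, orange for Het and blue for KO. Het odor is the highest MOE library in all 6 panels, and every mOSN value lies below every MOE value of the same gene.

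The alpha globin genes, which supply the alpha chains, gave nearly the same values as each other. Hba-a1 was at 11233, 11772 and 18533 with water and at 10505, 21009 and 11400 with odor, each time for WT, Het and KO. Hba-a2 was at 11530, 11952 and 18866 with water and at 10665, 21376 and 11553 with odor. For both genes 4 libraries lay close together and 2, Het odor and KO water, lay above them. The highest was 1.13 times the second in each gene, and 2.0 times the lowest.

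The beta globin genes, which supply the beta chains, separated the libraries less cleanly. For WT, Het and KO, Hbb-b1 was at 27975, 21471 and 30044 with water and at 20539, 38261 and 16299 with odor. Hbb-b2 was at 32193, 26825 and 37217 with water and at 25780, 44327 and 23809 with odor. Het odor was again highest and KO water second, but WT water came next and KO odor was lowest. The highest library was 2.35 times the lowest for Hbb-b1 and 1.86 times for Hbb-b2.

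For WT, Het and KO, Alas2 was at 622, 462 and 588 with water and at 394, 799 and 413 with odor, from 1835 to 5344 reads. Het odor was highest, WT water came next and WT odor was lowest. Slc4a1 was at 90.4, 79.7 and 76.9 with water and at 107, 226 and 82.5 with odor, from 361 to 1812 reads. Its Het odor value was 2.11 times the next, and the other 5 libraries lay within 1.39 times of each other. The SD of log2 values over the 6 libraries was 0.43 for each alpha globin gene, 0.44 for Hbb-b1, 0.35 for Hbb-b2, 0.39 for Alas2 and 0.59 for Slc4a1, against a median of 0.31 over all genes. Without the highest library, Het odor, these became 0.33, 0.33, 0.36, 0.26, 0.3 and 0.19. Leaving out a gene's highest value tends to lower its SD. The median of 0.31 is over all 6 libraries, so it is not a background for these.

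Across the 6 MOE libraries, in which all genes share a library's depth and scaling, Pearson's r between log2 values was 1.0 for the 2 alpha globin genes and 0.981 for the 2 beta globin genes. It was 0.809 for Hba-a1 with Hbb-b1, and 0.947 for Alas2 with Hbb-b1 but 0.79 with Hba-a1. Slc4a1 had the lowest values, from 0.565 to 0.636. These are descriptions over 6 points.

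The odor comparison asks what 60 min of odor changes. The members differed in opposite directions between genotypes. In Het all 6 were higher with odor, at 1.78 times the water value for Hba-a1, 1.79 for Hba-a2, 1.78 for Hbb-b1, 1.65 for Hbb-b2, 1.73 for Alas2 and 2.84 for Slc4a1. In KO the globin genes and Alas2 were lower with odor, at 0.615, 0.612, 0.542, 0.64 and 0.702 times water, and Slc4a1 was at 1.07. In WT the same 5 genes were at 0.935, 0.925, 0.734, 0.801 and 0.634 times water, and Slc4a1 at 1.18. The count of members higher with odor was therefore 6 of 6 in Het, 1 of 6 in KO and 1 of 6 in WT, where 52.5%, 52.9% and 49.5% of all genes were higher. Slc4a1 alone passed 2-fold, in Het, as 4.92% of all genes did in that direction, and 6.92% did in the other. No member passed 2-fold in WT (5.83% of all genes were higher and 7.71% lower) or in KO (6.18% and 4.71%).

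**Figure D2:**
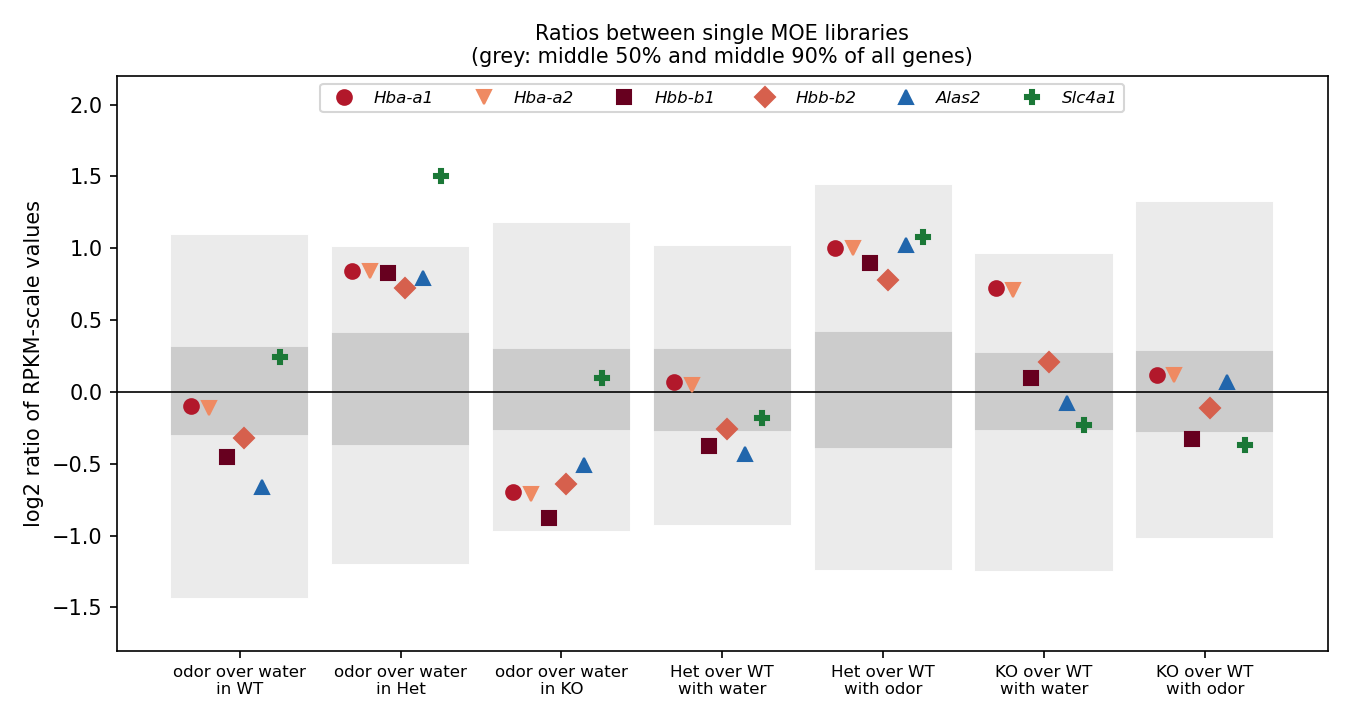
Log2 ratios of RPKM-scale values between pairs of single MOE libraries for the 6 genes (coloured points), over the middle 50% (dark grey) and middle 90% (light grey) of all 14602 genes. All 6 points lie above 0 in the 2 comparisons whose numerator is Het odor, and the globin and Alas2 points lie below 0 for odor over water in KO.

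No member passed limma's test for odor against water with genotype as a block (two-sided, threshold at a Benjamini-Hochberg adjusted p of 0.05, 2 residual degrees of freedom), and 0.0137% of 14602 genes did. Limma's log2 fold change was 0.01 ± 0.41 (SE) for Hba-a1 (adjusted p = 0.997), -0.16 ± 0.507 for Hbb-b1 (adjusted p = 0.975), -0.13 ± 0.305 for Alas2 (adjusted p = 0.964) and 0.61 ± 0.303 for Slc4a1 (adjusted p = 0.882). Both genes it called were higher. An unadjusted p under 0.05 was met by 439 genes upward and 272 downward, and limma's voom on the recovered reads called 6. The estimates moved with both the Het and the KO pair. Without either Het library they were -0.4 for Hba-a1, -0.41 for Hba-a2 and 0.17 for Slc4a1, and without either KO library they were 0.37, 0.36 and 0.87.

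The odor effect in KO, less the effect that the other genotypes share in the fit, was negative for all 6 members. Limma's log2 difference was -1.07 ± 0.807 for Hba-a1 (adjusted p = 0.836), -1.08 ± 1.05 for Hbb-b1 (adjusted p = 0.869), -0.57 ± 0.62 for Alas2 (adjusted p = 0.882) and -0.77 ± 0.576 for Slc4a1 (adjusted p = 0.836). None passed, and limma called 0% of genes (548 upward and 491 downward met an unadjusted p under 0.05), as voom called 0. This fit has 1 residual degree of freedom and takes WT and Het to share an odor effect, from which the members' own values departed: Het lay above water and WT below it for 5 of the 6.

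The genotype comparisons ask what the loss of 1 or both Dnmt3a alleles changes in the epithelium. With odor, all 6 members were higher in Het than in WT, 3 of them at least 2-fold (Hba-a2, Alas2 and Slc4a1, with Hba-a1 just short of it), beside 8.41% of all genes, and none at least 2-fold lower, beside 7.6%. With water, 2 of 6 were higher, both alpha globin genes, and none passed 2-fold (5.07% of all genes were higher and 4.4% lower). Limma's log2 fold change of Het against WT with treatment as a block was 0.53 ± 0.503 for Hba-a1 (adjusted p = 0.795), 0.26 ± 0.621 for Hbb-b1 (adjusted p = 0.921), 0.29 ± 0.374 for Alas2 (adjusted p = 0.849) and 0.45 ± 0.371 for Slc4a1 (adjusted p = 0.769). No member passed, and limma called 0% of genes (395 upward and 582 downward met an unadjusted p under 0.05), as voom called 0. Without the Het odor library all 6 estimates were negative, from -0.08 for Hba-a1 to -0.49 for Hbb-b1. The direction thus rests on that library.

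For KO against WT the alpha globin genes were higher in KO with water, with Hba-a1 at 18533 against 11233, and close with odor, at 11400 against 10505. None of the 6 passed 2-fold with water (4.52% of all genes were higher and 6.43% lower) or with odor (7.03% and 5.2%). Limma's log2 fold change was 0.42 ± 0.503 for Hba-a1, 0.41 ± 0.506 for Hba-a2, -0.12 ± 0.621 for Hbb-b1, 0.05 ± 0.623 for Hbb-b2, -0.01 ± 0.374 for Alas2 and -0.3 ± 0.371 for Slc4a1, each with an adjusted p of 1. No member passed, and limma called 0% of genes (185 upward and 141 downward met an unadjusted p under 0.05), as voom called 0. Without the KO water library Hba-a1 was at -0.12 and Hba-a2 at -0.12.

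The balance of alpha and beta chains was read within each library, where depth and library factor cancel. In MOE the summed beta globin value over the summed alpha globin value was 2.64, 2.04 and 1.8 in the WT, Het and KO libraries with water and 2.19, 1.95 and 1.75 in those with odor. The 2 libraries of a genotype did not overlap those of another, in the order WT, Het, KO, and in each genotype odor lay below water. This order was noticed after the values were seen and is given as a description of 6 libraries, with no test. How many other pairs of genes separate the genotypes in this way was not counted. Levels of different genes are compared on the per-length scale, and the values imply that the counted length of Hbb-b2 was 40.5% of that of Hbb-b1, so the sum weights the 2 genes by the annotation. For each beta gene alone over summed alpha, the ratio for WT, Het and KO was 1.23, 0.905 and 0.803 with water and 0.97, 0.903 and 0.71 with odor for Hbb-b1, and 1.41, 1.13 and 0.995 and 1.22, 1.05 and 1.04 for Hbb-b2. The genotypes did not overlap in either, but for Hbb-b2 Het and KO were close with odor, at 1.05 and 1.04, and odor lay above water in KO. These ratios all share the summed alpha value, so they are not independent of each other. In reads, Hbb-b1 was counted 2.14, 1.97 and 1.99 times as often as Hbb-b2 in the WT, Het and KO libraries with water, and 1.97, 2.13 and 1.69 times with odor.

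The 2 alpha globin copies gave almost the same value in every MOE library, with Hba-a2 at 1.01 to 1.03 times Hba-a1. The 2 beta globin genes were less alike, with Hbb-b1 at 0.685 to 0.869 times Hbb-b2, lowest in KO odor. How reads that fit both copies of a near-identical pair were assigned is not given in the sources used here, so the split within each pair is uncertain. The summed reads of a pair are not affected by it as long as such reads were counted once. The summed RPKM-scale value of the beta pair is affected, because the counted length of Hbb-b2 was 40.5% of that of Hbb-b1. For the alpha pair the lengths were nearer, at 95.2% (Hba-a1) and 90.2% (Hba-a2) of Hbb-b1. Summed globin was 133 to 178 times Alas2 in the 6 libraries, a narrower range than that of Alas2 over Slc4a1, from 3.53 in Het odor to 7.65 in KO water.

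**Figure D3:**
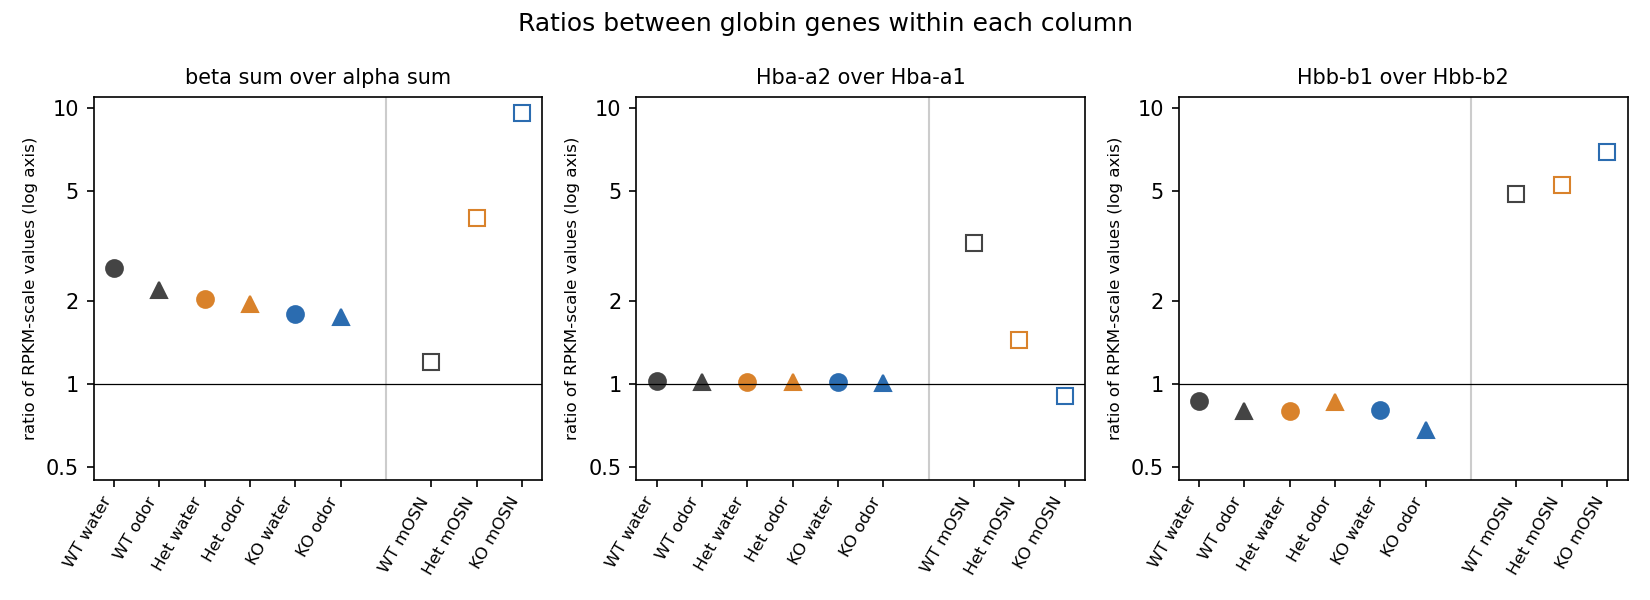
Ratios of RPKM-scale values within each column (log axis): summed beta over summed alpha globin, Hba-a2 over Hba-a1 and Hbb-b1 over Hbb-b2, with filled symbols for MOE (circles with water, triangles with odor) and open squares for mOSN. In MOE the beta over alpha ratio declines from WT (2.64 and 2.19) to KO (1.8 and 1.75), whereas in mOSN it is 1.2 in WT and 9.55 in KO.

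Other genes of red cells were read from lists of known genes. None of the listed genes passed limma in any of the 4 comparisons. Red cell membrane genes shared the members' peak in Het odor but not their other differences. Of 17 measured, 15 had their highest value in Het odor, where 30.6% of all genes did, and their summed value was 1935 there and 1205 to 1379 in the other libraries. KO water, second highest for the globin genes, was the lowest for this sum, and odor over water in KO had a median log2 of -0.07 (8 higher and 9 lower) against -0.67 for the 6 members. Spnb1, which encodes the beta spectrin of the membrane skeleton, is one example chosen after its values were seen, at 103 in Het odor and 23.9 to 55.1 elsewhere. Aqp1, a water channel also made by endothelium, was at 257 in Het odor and 143 to 171 elsewhere. In limma's estimate for odor 14 of the 17 were above 0 and 3 below, and the median log2 was 0.2 against 0.0 for all genes. By genotype, 15 of the 17 were higher with odor in Het, but 8 in WT and 8 in KO. Beside these, 52.5%, 49.5% and 52.9% of all genes were higher.

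Transcription factors of red cell precursors were scarce. Of 12, 7 were highest in Het odor, where 30.6% of all genes were, and 4 in KO odor, where 17.9% were. Gata1, the master regulator of red cell formation, had 25, 21 and 11 reads in the WT, Het and KO libraries with water and 35, 89 and 27 in those with odor. Klf1, the activator of adult beta globin, had 38, 5 and 29 reads with water and 37, 107 and 29 with odor. Both were chosen after their values were seen. The most abundant of the list, Bcl11a, Ldb1, Lmo2 and Myb, are also made outside the red cell lineage, and of these Bcl11a and Lmo2 were lowest in Het odor, at 62.3 against 81.3 to 126 and at 55.7 against 58.1 to 71.0. For odor 9 of the 12 had an estimate above 0, and the median log2 was 0.41 against 0.0 for all genes. By genotype, 5 of the 12 were higher with odor in WT, 10 in Het and 10 in KO.

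Heme synthesis genes did not follow the members as a group. Of 11 besides Alas2, 5 were highest in Het odor, where 30.6% of all genes were. Alas1, the housekeeping form of the enzyme that Alas2 encodes, was at 389, 598 and 618 with water and at 1328, 1130 and 715 with odor for WT, Het and KO, thus higher with odor in each genotype while Alas2 was not. Fech, which inserts iron into heme, ranged from 339 to 468. Slc25a37, the mitochondrial iron importer of red cell precursors, was highest in Het odor, at 637 against 392 to 527. For odor 9 of the 11 had an estimate above 0, and the median log2 was 0.19 against 0.0 for all genes. Other erythroid genes, 22 measured, were highest in Het odor in 17 cases, and Bpgm, which makes the regulator of oxygen affinity, was at 251 there and 179 to 242 elsewhere. Genes of heme and hemoglobin clearance were highest there in 6 of 11, with a summed value of 14502 against 10301 to 13067, most of it from Fth1, a ferritin subunit of all cells.

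The libraries also differed in markers of other cells. Counts of markers highest in Het odor stand beside 30.6% of all genes, and those in KO odor beside 17.9%. In Het odor, granulocyte and marrow myeloid markers summed to 8584 against 2608 to 6443 elsewhere, with 16 of 21 highest there, and S100a8, a neutrophil protein, at 2982 against 900 to 1813. Platelet and megakaryocyte markers summed to 777 against 386 to 607, with 7 of 12 highest, and endothelial markers to 338 against 167 to 231, also with 7 of 12. Bone markers summed to 16258 in Het odor and 16181 in KO water, the 2 libraries with the most globin. In KO odor, which had the least globin, they summed to 4484. Between these the orders differed. Bone sums were 10990, 12325 and 12765 in WT water, WT odor and Het water, where globin sums were 82931, 67489 and 72021. The globin sum in KO odor, at 63060, was close to that in WT odor. In KO odor the platelet list was divided: Pf4, a platelet chemokine, was at 5.75 from 3 reads and at 46.1 to 133 in the others, while Thbs1, a thrombospondin also made by other cells, was highest there, at 328 against 125 to 255, and the list's sum was 506. Of 14 macrophage markers, 8 were highest in Het odor and 1, Lyz2, in KO odor. Their sum was nevertheless highest in KO odor, at 4242 against 1374 to 2637, because Lyz2 made up 3626 of it, while Cd68 was lowest there, at 43.3 against 77.4 to 171. B lineage markers summed to 720 to 844, most of it Ebf1, which olfactory neurons also make. For odor over water in KO, 4 of these 8 markers were at least 2-fold lower, beside 4.71% of all genes. Of these, Cd79a, a part of the B cell receptor, was at 13.1 in KO odor and 33.2 to 53.1 elsewhere. T cell markers summed to 7.96 to 18.2. Sustentacular and gland markers, for the support cells of the epithelium, summed to 30717 to 44743, with Het odor inside that range. The part of blood, marrow, vessel or neuron content in the differences between libraries was not tested. In bulk tissue, fewer cells of a type and less RNA per cell cannot be told apart.

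**Figure D4:**
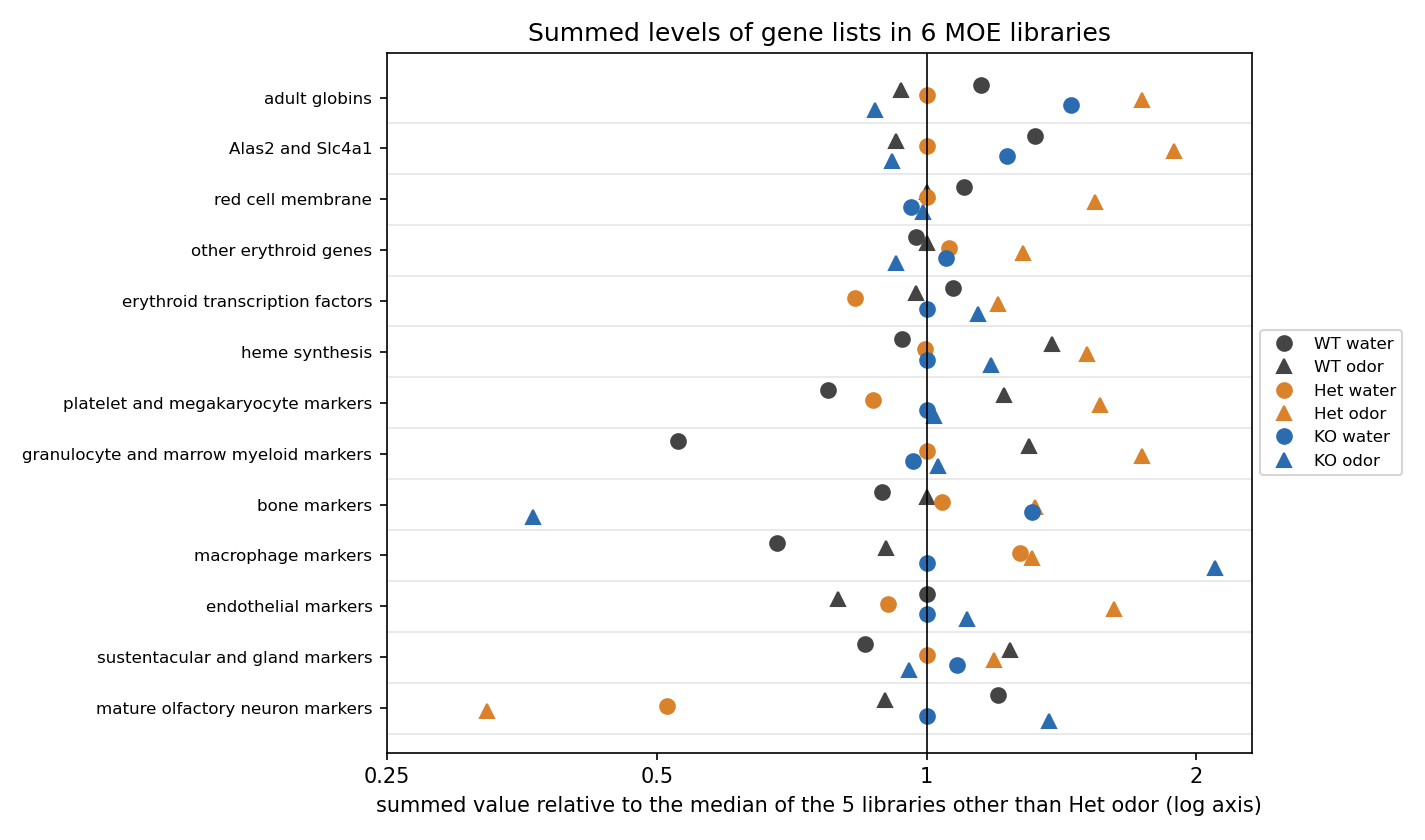
Summed RPKM-scale values of 13 gene lists in the 6 MOE libraries, each relative to the median of the 5 libraries other than Het odor (log axis), with circles for water and triangles for odor, and grey for WT, orange for Het and blue for KO. Het odor lies at 1.74 for adult globins and to the right of the other libraries for red cell membrane, myeloid, platelet and endothelial lists, and is lowest for mature neuron markers, while KO odor is lowest for bone markers.

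Genes whose pattern over the 6 MOE libraries was most like the members' mean were ranked by Pearson's r of log2 values, as a description. The 10 nearest were Id3 (r = 0.989), an inhibitor of DNA binding by other factors, Exoc7, Hist1h2bp, a replication-dependent histone, Cenpt, Frmd6, Zfand2b, Dexi, Lcp2, a signalling adaptor of blood cells, Rhob and Dhrs1 (r = 0.9739). Id3 was at 146, 139 and 170.0 with water and at 131, 218 and 117 with odor for WT, Het and KO. Of all 14596 genes ranked, 203 (1.39%) had an r above 0.9. These values rest on 6 points, with Het odor apart in many genes. Among the listed red cell genes the closest was Ank1, the membrane anchor ankyrin, at r = 0.97 and rank 15, named after its value was seen.

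Sorted mOSN held a small part of the globin signal of whole MOE. Summed over the 4 globin genes, the pooled WT, Het and KO values were 2399, 1725 and 2510, which is 2.89%, 2.4% and 2.4% of the MOE water library of the same genotype. Markers of sustentacular cells and glands, which the sort should remove, were left at 2.07%, 2.0% and 2.05%, whereas mature neuron markers were at 364%, 804% and 300%. Other lists were left at other levels: bone markers at 0.907% to 1.08%, macrophage markers at 4.3% to 8.74%, granulocyte and marrow markers at 6.15% to 10.2%, and endothelial markers at 26.7% to 74.8%. The globin sum thus lay near support cell markers and between bone and macrophage markers. Other red cell lists were left at higher levels than globin. Alas2 and Slc4a1 together were at 4.55% to 5.97%, heme synthesis genes at 26.5% to 35.4% and red cell membrane genes at 65.7% to 78.9%. Erythroid transcription factors were at 91.9% to 118% and other erythroid genes at 175% to 203%. Platelet and megakaryocyte markers were at 33.1% to 43.5%, and B lineage markers at 126% to 188%. At least 2-fold lower values in mOSN than in MOE water were found for 24.8%, 25.2% and 21.9% of the 13369 genes in both tables in WT, Het and KO, and for all 6 members in all 3. The tables were made separately and partly with other kits, so these percentages are not tested and set levels across tables.

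**Figure D5:**
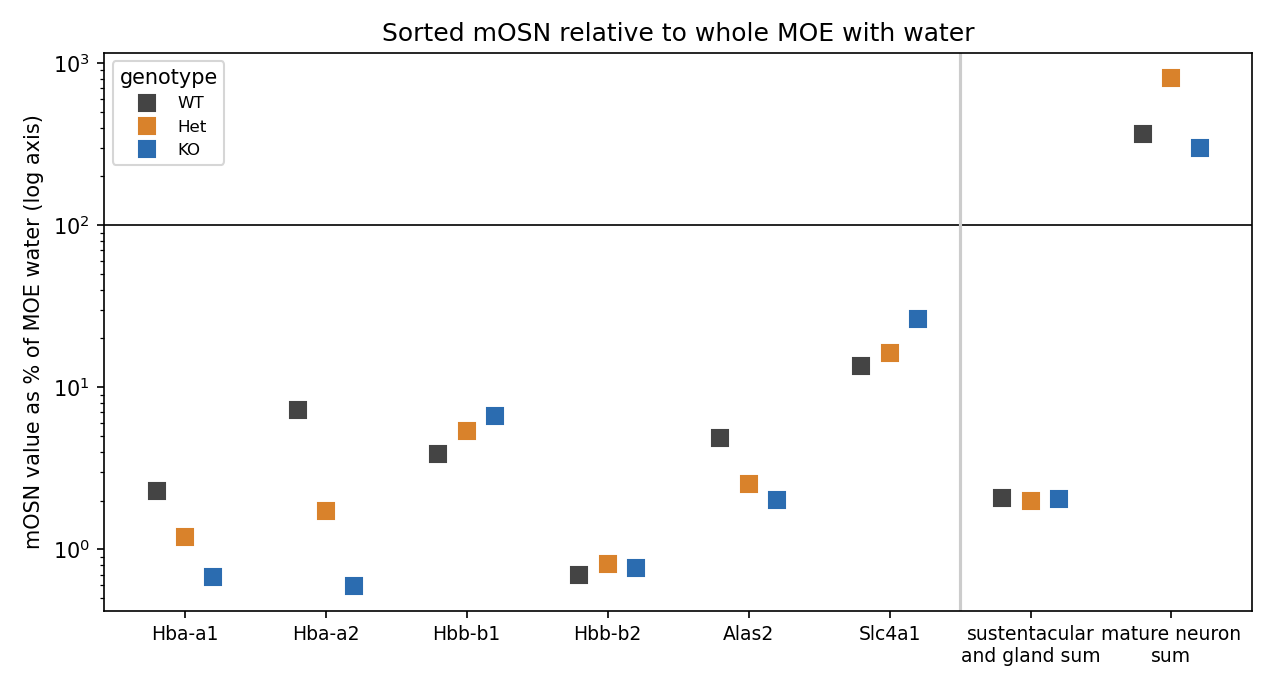
Pooled mOSN values as a percentage of the MOE water value of the same genotype (log axis) for the 6 genes and, right of the line, for summed sustentacular and gland markers and summed mature neuron markers. The 6 genes lie between 0.599% and 26.3%, with the alpha globin genes lower in KO than in WT and Hbb-b1 and Slc4a1 higher, and support cell markers lie near 2%.

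The members did not share a genotype pattern in mOSN. For WT, Het and KO, Hba-a1 was at 257, 141 and 125, and Hba-a2 at 834, 205 and 113, so that KO was at 0.485 and 0.136 times WT. Hbb-b1 was at 1086, 1159 and 1985, or 1.83 times WT in KO, and Hbb-b2 at 222, 220 and 287, or 1.29 times. Alas2 was at 30.3, 11.7 and 12.0, or 0.395 times WT in KO, and Slc4a1 at 12.3, 13.0 and 20.2, or 1.65 times. Alpha globin genes and Alas2 were thus lower in both mutants, and beta globin genes and Slc4a1 were higher in KO. At least 2-fold lower in KO were 3 of the members (Hba-a1, Hba-a2 and Alas2), beside 3.07% of 14744 genes, and none was 2-fold higher, beside 19.3%. In Het, 2 (Hba-a2 and Alas2) were at least 2-fold lower, beside 3.07% of genes, and none was 2-fold higher, beside 8.47%. With 1 pooled value per genotype there is no test and no error.

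Ratios within a column showed the same divergence. The WT, Het and KO values of the beta over alpha ratio in mOSN were 1.2, 3.98 and 9.55, the opposite order to MOE. Hba-a2 was 3.24, 1.45 and 0.906 times Hba-a1, although their values in MOE were within 1.03 times of each other in all 6 libraries. Hbb-b1 was 4.88, 5.28 and 6.92 times Hbb-b2, against 0.685 to 0.869 in MOE. The genotype order in mOSN is also the order of the kits and of their RNA input, from both ScriptSeq libraries of 200 ng in WT to both NuGEN libraries of 100 ng in KO. Kit, input and genotype cannot be told apart there. Globins outside the red cell lineage are listed too: Cygb, the cytoglobin of connective tissue cells, was at 27.3 to 66.4 in MOE and 23.0 to 38.6 in mOSN, and Mb, the myoglobin of muscle, at 2.2 to 23.7 in MOE with its highest value in KO odor. The embryonic alpha-like gene Hba-x, named after its values were seen, was listed only in mOSN, at 3.69, 26.6 and 18.0 in WT, Het and KO, and the minor globin Hbq1b only in MOE, at 3.93 to 14.9 from 5 to 25 reads.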

How the data were processed

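RPKM, reads per length and depth, is what the authors call the deposited values, per the labels; the columns share no sum, so they are called RPKM-scale here. The submitters' processing notes name builds mm9 and NCBIM37 and the tools STAR 2.3.0, Bowtie2 2.1, featureCounts, DESeq and Picard 1.64, and no formula. Ratios between the 6 MOE libraries gave whole reads for 100% of 14613 genes (tolerance 1e-05 reads; a common divisor of a gene's 6 counts would be missed); 7 mOSN rows without values were left out, and mOSN depth is unknown. MOE values were fitted as log2(value + 0.5), for 14602 genes at 0.5 or more in at least 2 libraries, with limma 3.58.1 in R 4.3.3 (mean-variance trend, two-sided, Benjamini-Hochberg), genotype or treatment being the block. Fold changes on this scale understate those of low genes. The script was tested on simulated data. A log2 change of 1 was called in 74% of changed genes for odor, 28% for KO and 32% for Het. For the odor effect in KO it was called in 4%. Between 9 and 22 unchanged genes of 14602 were also called. A member with a difference of that size could thus go uncalled. The labels do not tie libraries to animals, so p-values reflect the spread among libraries, which may be technical. The pooled mOSN column per genotype allows no test.

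Named were the 6 members, Dnmt3a, the 4 most abundant tested genes of each of 18 gene lists, and the 10 genes most like the members; where others are named, the text says so. Members and lists were chosen with earlier results of these data known. Promoters came from RefSeq (GRCm38.p6), with matches on both strands. Alternatives covered pseudocounts (0.1 and 2), filters, trend, scaling, voom, block and leaving out each library.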

Additional observations from a re-analysis of the deposited data

Results flagged for a closer look

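For 5 of the 6 genes the odor over water ratio pointed up in Het and down in KO, each time from 1 library with odor and 1 with water. The log2 ratio in Het minus that in KO was 1.54 for Hba-a1, 1.55 for Hba-a2, 1.72 for Hbb-b1, 1.37 for Hbb-b2 and 1.3 for Alas2. With 1 library per genotype and treatment the difference was not tested. The 4 globin values and Alas2 are not independent of each other, and all 5 differences share the Het odor library, whose marker sums stood apart.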

How the results depend on the processing

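No paired analysis was possible because the mOSN table pools the numbered replicates; the MOE fits instead have genotype or treatment as a block. The number of genes called for odor, 2, became 0 without the trend, 1 with median-ratio scaling, 6 with voom and 1 without the block, and 0 to 4 with a library left out. Het against WT, at 0, became 27 without the WT water library. Leaving out a library moved the log2 estimates for odor over -0.4 to 0.37 for Hba-a1, -0.41 to 0.36 for Hba-a2, -0.66 to 0.19 for Hbb-b1, -0.48 to 0.2 for Hbb-b2, -0.58 to 0.14 for Alas2 and 0.17 to 0.87 for Slc4a1. For KO against WT the ranges were -0.12 to 0.96, -0.12 to 0.95, -0.65 to 0.42, -0.38 to 0.47 and -0.4 to 0.39 for the same genes in turn, with Slc4a1 at -0.69 to 0.08. For Het against WT they were -0.08 to 1.15, -0.1 to 1.15, -0.49 to 1.01, -0.34 to 0.86, -0.39 to 0.98 and -0.22 to 1.11. Estimates near 0 turned with median-ratio scaling or voom for odor (Hba-a1 -0.01 and Hba-a2 -0.02) and for Alas2 in KO (0.0), and with quantile normalization for KO (Hbb-b2 -0.1, Alas2 0.01) and Het (Hbb-b1 -0.08, Hbb-b2 -0.05). In mOSN, median-ratio scaling turned Hbb-b2 in Het to 0.0. Genes at least 2-fold apart in mOSN went from 3292 to 2142 (KO) and from 1702 to 1125 (Het) at a mean of 5 or more, where fewer genes were counted. For the other changes the cause was not tested. The odor effect in KO called 0 genes under every alternative run; leaving out a library left it no residual degrees of freedom and was not run. Without the 10 other genes with most reads, an alternative chosen after seeing the data, globin took 0.717% to 1.46% of reads, with the same libraries lowest and highest.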
